A study of Mus musculus with 12 samples.

Results

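The Wnt ligands, their receptors and their secreted antagonists were examined across 4 conditions of cultured mouse cardiac fibroblasts. Members were all protein-coding genes of the deposited count table whose symbol marks a Wnt ligand, a Frizzled receptor, Lrp5 or Lrp6, an R-spondin, a secreted Frizzled-related protein, a Dickkopf protein or Wif1, together with Axin2, Lef1, Tcf7, Nkd1 and Nkd2. The rule reads symbols and no expression value, although it was set with earlier results of these data known. The rule found 49 of the 35275 genes in the table: 19 Wnt ligands, 10 Frizzled receptors, 2 co-receptors, 4 R-spondins, 4 secreted Frizzled-related proteins, 5 Dickkopf proteins with Wif1, and 5 nuclear factors and feedback targets. A filter on low counts kept 34 of them for testing, among 15150 genes tested in all.

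RNA-Seq compared control and Smad7-KO fibroblasts, each unstimulated or stimulated with TGF-β1 at 10 ng/ml, with 3 libraries per condition. All 4 groups, controls included, were passage 2 fibroblasts from the hearts of 12-week-old mice that carry floxed Smad7 alleles (Smad7 fl/fl), with the strain given as C57BL/6 in the labels and C57BL/6J in the study's text. The sample titles call the control cells wild type. Smad7-KO cells were infected for 48 hours at 100 MOI with an adenovirus that expresses Cre recombinase. Control cells received an adenovirus that the labels give as expressing GFP and the study's text as empty. Every Smad7-KO library thus came from cells given Cre, and no control library did. Effects of Smad7 loss, of Cre and of the virus used cannot be told apart here. The duration of stimulation is 2 hours in one label and 4 hours in another, so it is not settled here. Deletion by a virus acts in every cell type that it infects, not in fibroblasts alone. Nothing in the labels ties the libraries to separate animals, so p values measure the spread between these libraries, which may be partly technical.

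Wnt proteins are secreted lipid-modified ligands that bind Frizzled receptors. With the co-receptors Lrp5 and Lrp6 they stabilize β-catenin, which acts with TCF/LEF factors on target genes such as Axin2 and Nkd1, and some ligands, Wnt5a among them, act mainly through β-catenin-independent routes. R-spondins raise the number of receptors at the cell surface, whereas secreted Frizzled-related proteins and Wif1 bind ligands outside the cell and Dkk1, Dkk2 and Dkk4 bind Lrp5 and Lrp6. In the heart, Wnt signals act in development and in the fibroblasts of injured myocardium, and TGF-β is the best known activator of the same cells. Smad7 is an inhibitory Smad that restrains TGF-β signaling.

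Total counts were between 19056916 and 25371321 per library (median 22660845). The spread between replicates beyond counting noise, as a biological coefficient of variation, was 0.333 in unstimulated controls, 0.138 in stimulated controls, 0.0529 in unstimulated Smad7-KO and 0.0996 in stimulated Smad7-KO libraries, so the unstimulated controls stood apart by their spread. Smad7 reads fell after Cre from 74.3 ± 2.94 to 29.3 ± 1.48 CPM (counts scaled to library size as CPM, SD, n = 3 each) in unstimulated cells, a log2 fold change of -1.34 (edgeR adjusted p = 9.02e-06), and from 146 ± 4.22 to 76.7 ± 5.89 CPM (SD, n = 3 each) in stimulated cells, a log2 fold change of -0.92 (edgeR adjusted p = 1.15e-04). Smad7 reads thus remained in Smad7-KO libraries, and with TGF-β1 their level was near that of unstimulated controls. Fibroblast markers (9 genes) summed to between 7328 and 11345 CPM. Macrophage markers (12 genes) summed to between 16442 and 26307 CPM, and per length to between 12086 and 18884 FPKM against 1543 to 2395 FPKM for fibroblast markers, so the libraries held abundant macrophage transcripts beside the labelled cell type. In bulk RNA, fewer cells of a type and less RNA per cell cannot be told apart.

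Per length, no ligand reached the level of Sfrp1, Dkk3 or the leading receptors. Sfrp1, a secreted antagonist that binds Wnt ligands, had the highest level of all members, with 99.3 FPKM over the 12 libraries (FPKM, counts scaled by gene length and library total). Dkk3, a divergent Dickkopf protein, followed with 20.1 FPKM, then the receptor Fzd7 with 18.4, the co-receptor Lrp6 with 16.8 and the receptors Fzd2 with 16.2 and Fzd6 with 13.4 FPKM. Lrp5 had 12.6 FPKM and Nkd2, an intracellular inhibitor that binds Dishevelled, 12.3 FPKM. The order of members below Sfrp1 changed with condition: Dkk3 was next in both control groups, at 23.6 and 28.6 FPKM, Lrp6 at 22.6 FPKM in unstimulated Smad7-KO cells and Fzd7 at 28.3 FPKM in stimulated Smad7-KO cells. Frzb, a secreted Frizzled-related protein whose symbol the rule did not match, had 60.7 FPKM over all libraries, above every member but Sfrp1. Over all libraries, Wnt9a had the highest level of the ligands at 6.76 FPKM, followed by Wnt5a at 2.89, Wnt11 at 1.53, Wnt4 at 0.869, Wnt10b at 0.799, Wnt5b at 0.783, Wnt2b at 0.449, Wnt2 at 0.386, Wnt10a at 0.234 and Wnt1 at 0.199 FPKM. Wnt5b shares 2963 bases with Fbxl14 on the opposite strand, and whether reads were counted by strand is not given in the sources used here.

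**Figure D1:**
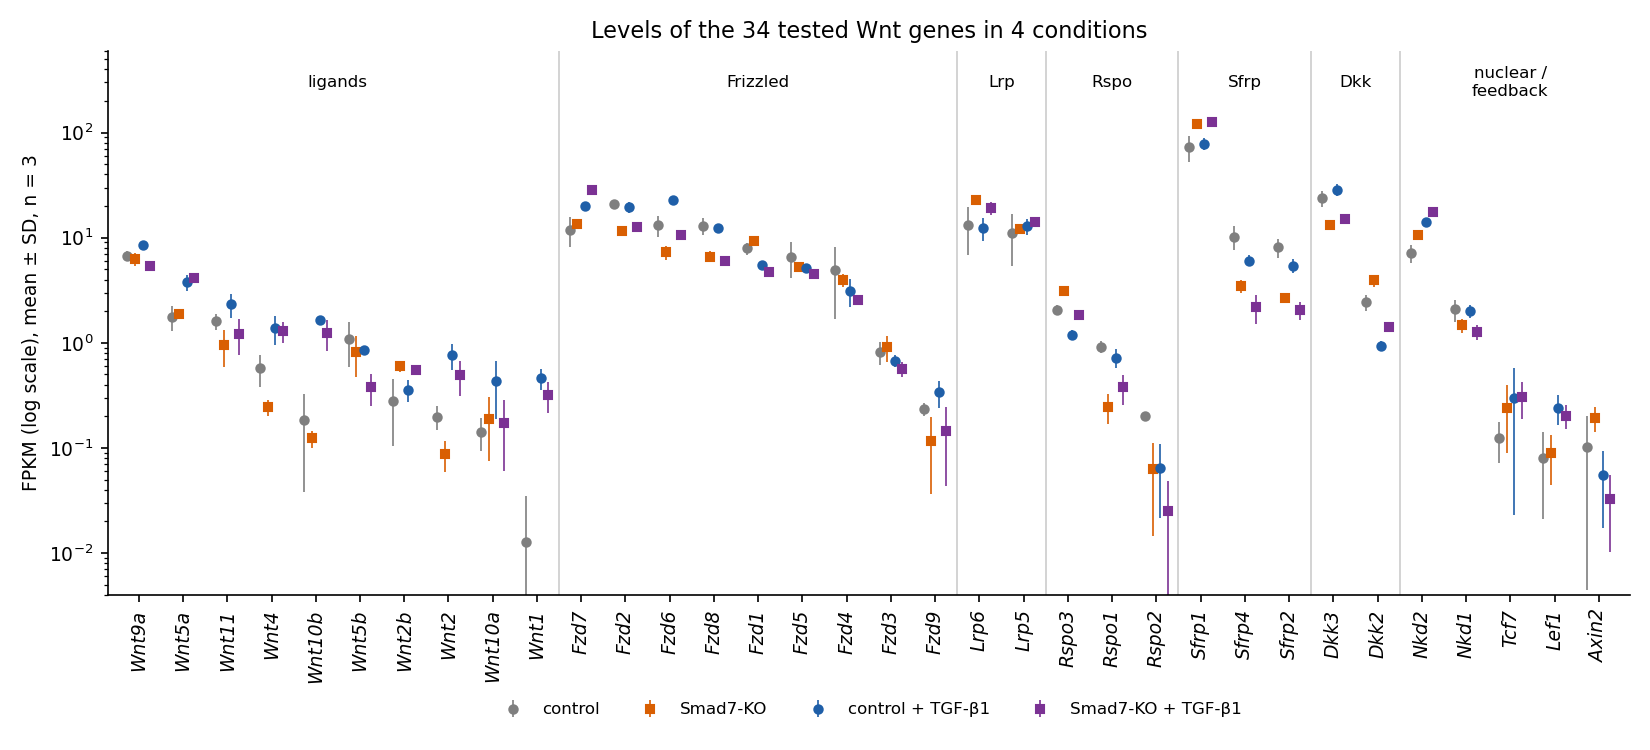
Levels of the 34 tested Wnt genes in FPKM on a log scale, as mean ± SD of 3 libraries in each condition, grouped by role. Sfrp1 lies above all others in each condition, and Wnt1, which had 0 reads in every unstimulated Smad7-KO library, has no point there; bars whose lower end reaches 0 or below run to the foot of the axis.

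Axin2, Lef1 and Tcf7 were low. Axin2, the negative feedback scaffold that is induced by β-catenin in most cell types, had 0.0962 FPKM, Lef1 0.153 FPKM and Tcf7 0.242 FPKM over all libraries, and no library held more than 37 counts of any of these 3 genes. Nkd1 had 1.71 FPKM. Other genes reported as β-catenin targets in some cells were higher, with Ccnd1 at 121, Cd44 at 29.1, Wisp1 at 26.2 and Myc at 13.2 FPKM. The 15 members that were not tested were Wnt3, Wnt3a, Wnt6, Wnt7a, Wnt7b, Wnt8a, Wnt8b, Wnt9b, Wnt16, Fzd10, Rspo4, Sfrp5, Dkk1, Dkk4 and Wif1. None of these reached more than 14 counts in any library, and the depth does not show whether they differ between conditions. Passing the filter was itself tied to the groups for some members, because Wnt1, Wnt2, Wnt10b, Lef1 and Tcf7 passed it only through stimulated libraries, Axin2 and Rspo2 only through unstimulated ones, Axin2 and Tcf7 only through Smad7-KO and Fzd9 and Rspo2 only through control libraries. For these members a difference in that direction was partly built in.

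The first comparison asked how TGF-β1 acted on Wnt genes in control and in Smad7-KO fibroblasts. Of the 10 tested ligands 5, Wnt1, Wnt2, Wnt4, Wnt5a and Wnt10b, rose in control cells and the same 5 rose in Smad7-KO cells, and none fell. Wnt1, Wnt2 and Wnt10b had passed the filter only through stimulated libraries, and without them 2 of 7 ligands, Wnt4 and Wnt5a, rose in each genotype. The receptors Fzd6 and Fzd7 and the inhibitor Nkd2 rose, whereas the receptor Fzd1, the R-spondin Rspo3 and the antagonist Dkk2 fell, in both genotypes. The co-receptors, the secreted Frizzled-related proteins and the β-catenin targets Axin2, Lef1, Tcf7 and Nkd1 did not pass the test. In all, 11 of the 34 tested members differed in control cells, 8 higher and 3 lower, against a background of 8.37% of all tested genes (5.04% higher, 3.33% lower). In Smad7-KO cells 11 members differed, again 8 higher and 3 lower, against a background of 10.2% (5.33% higher, 4.9% lower). A gene was called where its p from the quasi-likelihood test of edgeR, adjusted by Benjamini-Hochberg over the 15150 genes, was at most 0.05. Without the 7 members that passed the filter only through stimulated or only through unstimulated libraries, 8 of 27 differed in each genotype, 5 higher and 3 lower. The 11 genes were the same in both genotypes, and all 11 moved in the same direction. The comparisons share no library, but came from a single fit of all 12 libraries with a common filter and spread, so they were not independent. For Wnt1, Wnt2 and Wnt10b the direction was partly built in by the filter. The share of all tested genes called in both genotypes that kept their direction is not given here. The median log2 fold change of the tested members was 0.15 in control cells, against -0.03 for all tested genes, and 0.00 in Smad7-KO cells, against -0.01.

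**Figure D2:**
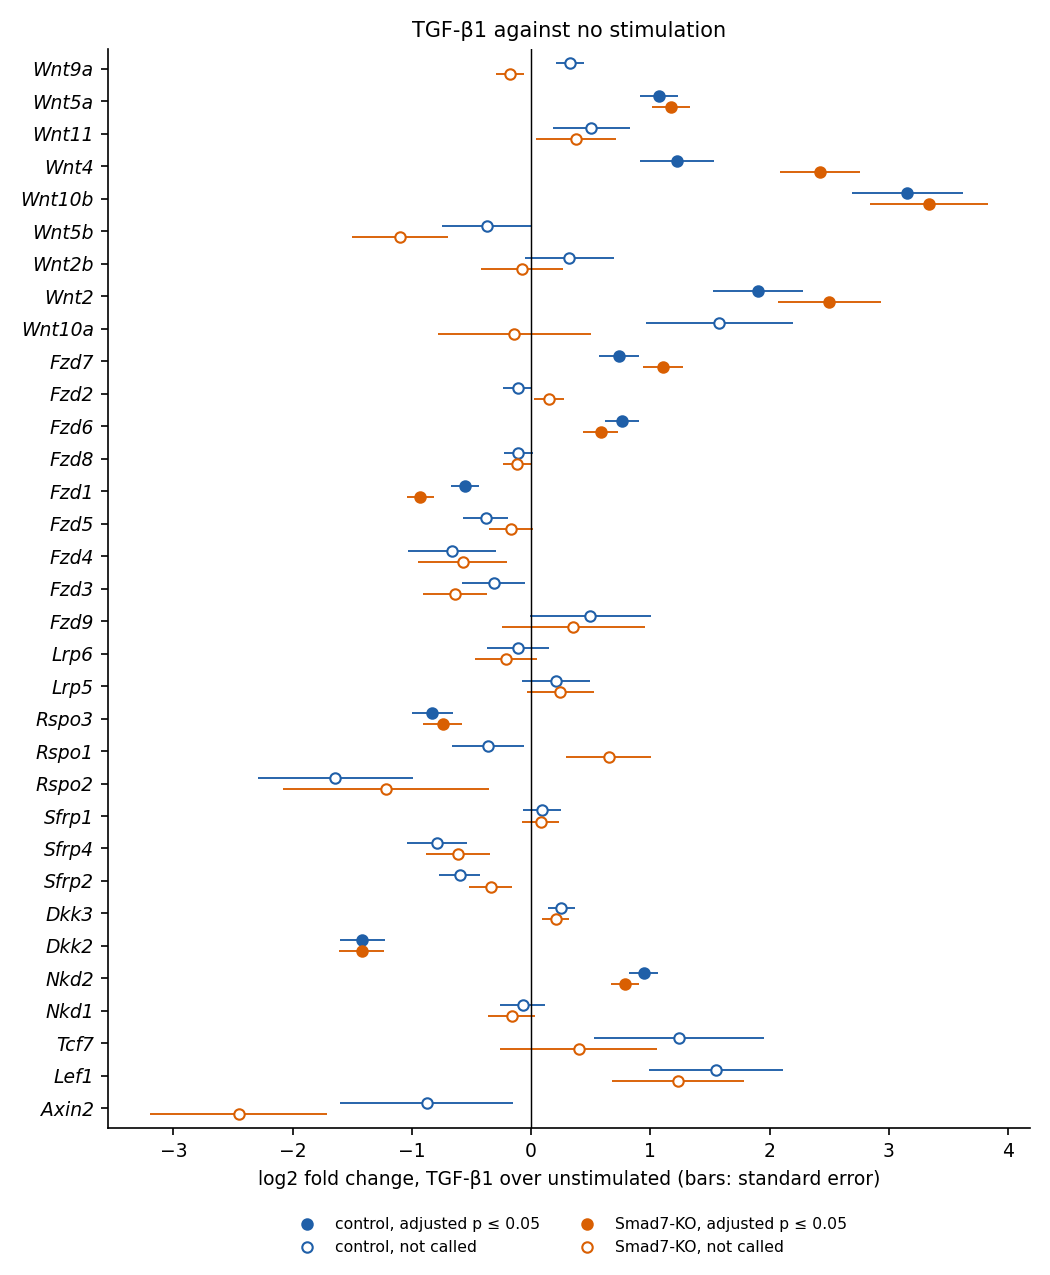
Effect of TGF-β1 on each tested Wnt gene, as log2 fold change with its standard error, in control and in Smad7-KO fibroblasts; filled points passed the edgeR test at an adjusted p of 0.05. Wnt10b, Wnt2, Wnt4 and Wnt5a lie to the right and Dkk2, Rspo3 and Fzd1 to the left in both genotypes; Wnt1, which is at the floor in unstimulated cells, is not drawn.

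Wnt1 and Wnt10b, canonical ligands that lie side by side on chromosome 15 and are read in opposite directions from starts 11707 bases apart, were near absent from unstimulated cells. Wnt1 had 2, 0 and 0 counts in the unstimulated control libraries, and 33, 21 and 22 after TGF-β1. In Smad7-KO cells it had 0 counts in all 3 unstimulated libraries and 12, 21 and 19 after TGF-β1. Unstimulated cells of both genotypes were thus at the floor, which is 3 counts or fewer in every library of a group, and all stimulated libraries were above it. Against that floor, taken over each library, Wnt1 was at least 7.53-fold higher with TGF-β1 in control cells (edgeR adjusted p = 0.00296) and at least 5.71-fold higher in Smad7-KO cells (edgeR adjusted p = 0.00209).

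Wnt10b had 0.0896, 0.799 and 0.379 CPM in unstimulated controls and 3.48, 3.94 and 3.5 CPM in stimulated controls. Smad7-KO libraries had 0.297, 0.214 and 0.303 CPM without and 2.03, 2.53 and 3.82 CPM with TGF-β1. No stimulated library overlapped an unstimulated one in either genotype. The log2 fold change was 3.16 in control cells (standard error 0.468, edgeR adjusted p = 0.00117) and 3.34 in Smad7-KO cells (standard error 0.494, edgeR adjusted p = 9.46e-04). Counts behind the unstimulated values were 2 to 14 per library.

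The sequence upstream of the start is shown for 4 of the 11 TGF-β1-responsive members, those whose RefSeq start coincides with the start in the deposited table, to place the DNA beside the response: Wnt1, Wnt10b and Nkd2, which rose, and Dkk2, which fell. Each line holds the 250 bases before the start, 5′ to 3′ on the strand of the gene, from RefSeq on GRCm38.p6, and capitals mark CAGAC or its reverse complement GTCTG, the core that Smad3 and Smad4 bind.
Wnt1, chr15:98789607-98789856, plus strand: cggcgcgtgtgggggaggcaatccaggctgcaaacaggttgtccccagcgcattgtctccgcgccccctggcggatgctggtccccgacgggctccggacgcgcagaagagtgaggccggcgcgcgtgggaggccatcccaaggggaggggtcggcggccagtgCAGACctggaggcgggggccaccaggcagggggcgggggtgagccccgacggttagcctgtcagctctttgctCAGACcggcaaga
Wnt10b, chr15:98778151-98778400, minus strand: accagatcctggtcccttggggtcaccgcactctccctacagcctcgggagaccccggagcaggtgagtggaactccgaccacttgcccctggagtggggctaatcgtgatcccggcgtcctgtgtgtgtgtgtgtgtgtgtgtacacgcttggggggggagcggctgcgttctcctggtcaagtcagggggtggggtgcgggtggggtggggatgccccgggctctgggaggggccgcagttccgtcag
Nkd2, chr13:73847632-73847881, minus strand: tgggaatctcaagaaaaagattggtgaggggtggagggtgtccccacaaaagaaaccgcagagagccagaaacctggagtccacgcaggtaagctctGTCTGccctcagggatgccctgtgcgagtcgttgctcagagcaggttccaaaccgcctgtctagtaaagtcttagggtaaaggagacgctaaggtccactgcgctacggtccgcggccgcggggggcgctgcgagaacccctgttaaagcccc
Dkk2, chr3:132085042-132085291, plus strand: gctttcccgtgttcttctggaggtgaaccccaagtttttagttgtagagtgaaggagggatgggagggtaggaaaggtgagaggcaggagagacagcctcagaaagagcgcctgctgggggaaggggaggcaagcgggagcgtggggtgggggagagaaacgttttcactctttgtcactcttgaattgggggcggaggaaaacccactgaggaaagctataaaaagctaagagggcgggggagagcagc
Wnt1 held 2 such matches, Nkd2 held 1, and Wnt10b and Dkk2 held 0. RefSeq windows were found for 8 of the 11 members, and 3 of these 8 held the core on either strand, as did 42.2% of 32851 windows of the same length. The TCF/LEF letters CTTTGAT or CTTTGAA were in 0 of the 8 and in 7.48% of all windows, and the AP-1 letters TGANTCA in 0 of the 8 and in 6.75%, both strands searched. A match describes these letters only and is not a site, and a window without one says nothing about a factor.

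Wnt2, a ligand that acts in heart and lung development, had 0.493, 0.343 and 0.506 CPM in unstimulated and 1.74, 2.15 and 1.21 CPM in stimulated controls. In Smad7-KO cells the libraries had 0.198, 0.257 and 0.130 CPM without and 1.12, 0.723 and 1.56 CPM with TGF-β1. Stimulated and unstimulated libraries did not overlap. The log2 fold change was 1.90 in control (standard error 0.377, edgeR adjusted p = 0.00758) and 2.50 in Smad7-KO cells (standard error 0.431, edgeR adjusted p = 0.00266). Wnt4, a ligand of kidney and gonad development, had 2.06, 3.60 and 1.73 CPM in unstimulated and 4.04, 7.52 and 5.49 CPM in stimulated controls. Smad7-KO values of Wnt4 were 0.891, 0.944 and 1.21 CPM, and 6.90, 4.66 and 4.90 CPM with TGF-β1. All stimulated libraries were above all unstimulated ones of the same genotype. Its log2 fold change was 1.22 in control cells (standard error 0.308, edgeR adjusted p = 0.0296) and 2.42 in Smad7-KO cells (standard error 0.334, edgeR adjusted p = 5.94e-04). The Wnt4 call in control cells was lost without stimulated control library 2 (adjusted p = 0.124 in edgeR), stimulated control library 3 (0.0789) or unstimulated control library 1 (0.124), and with the gene length trend removed (0.0565).

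Wnt5a, the main β-catenin-independent ligand, was the more abundant of the ligands that rose. It had 11.3, 10.6 and 15.3 CPM in unstimulated and 31.2, 23.3 and 24.0 CPM in stimulated control libraries. Smad7-KO cells had 12.7, 12.5 and 13.8 CPM, and 28.7, 30.9 and 28.4 CPM with TGF-β1. Stimulated libraries lay clear of unstimulated ones in both genotypes. The log2 fold change was 1.07 in control cells (standard error 0.158, edgeR adjusted p = 0.0011) and 1.18 in Smad7-KO cells (standard error 0.158, edgeR adjusted p = 4.87e-04). The other 5 tested ligands, Wnt2b, Wnt5b, Wnt9a, Wnt10a and Wnt11, did not pass the test in either genotype, with log2 fold changes from -0.37 for Wnt5b to 1.58 for Wnt10a in control cells and from -1.10 for Wnt5b to 0.38 for Wnt11, with -0.14 for Wnt10a, in Smad7-KO cells.

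Among receptors, Fzd7, which serves canonical and non-canonical ligands, had 51.4, 40.7 and 69.3 CPM in unstimulated and 96.1, 80.2 and 92.3 CPM in stimulated controls. In Smad7-KO cells the 3 libraries had 66.2, 56.6 and 58.5 CPM without and 137, 133 and 120 CPM with TGF-β1. The stimulated libraries were higher without overlap. Fzd7 rose by a log2 fold change of 0.73 in control (standard error 0.168, edgeR adjusted p = 0.0174) and 1.11 in Smad7-KO cells (standard error 0.168, edgeR adjusted p = 0.00112). Its call in control cells was lost without stimulated control library 1 (adjusted p = 0.0738 in edgeR), stimulated control library 3 (0.0694) or unstimulated control library 1 (0.0695).

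Fzd6, a receptor known from planar cell polarity, had 49.0, 47.6 and 65.0 CPM in unstimulated and 95.9, 90.3 and 87.8 CPM in stimulated controls. Its Smad7-KO libraries held 33.9, 24.9 and 29.0 CPM without and 46.5, 44.6 and 40.4 CPM with TGF-β1. Within each genotype the stimulated libraries were all higher, and stimulated Smad7-KO libraries were still below every unstimulated control library. The log2 fold change with TGF-β1 was 0.76 in control (standard error 0.143, edgeR adjusted p = 0.00542) and 0.58 in Smad7-KO cells (standard error 0.144, edgeR adjusted p = 0.0231). In Smad7-KO cells the Fzd6 call was lost without stimulated library 1 (adjusted p = 0.0991 in edgeR) or 2 (0.0797), without unstimulated library 2 (0.117) or 3 (0.0887), and in limma on log2(FPKM + 1) (0.0603).

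Fzd1 went the other way. It had 30.1, 32.7 and 36.4 CPM in unstimulated and 24.4, 20.1 and 23.0 CPM in stimulated control libraries, and 36.7, 39.3 and 38.7 against 21.8, 20.1 and 18.3 CPM in Smad7-KO libraries. Stimulated libraries were lower without overlap. Fzd1 fell by 0.55 on the log2 scale in control cells (standard error 0.114, edgeR adjusted p = 0.00963) and by 0.93 in Smad7-KO cells (standard error 0.115, edgeR adjusted p = 2.57e-04). Fzd2, Fzd3, Fzd4, Fzd5, Fzd8 and Fzd9 did not pass the test with TGF-β1 in either genotype.

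**Figure D3:**
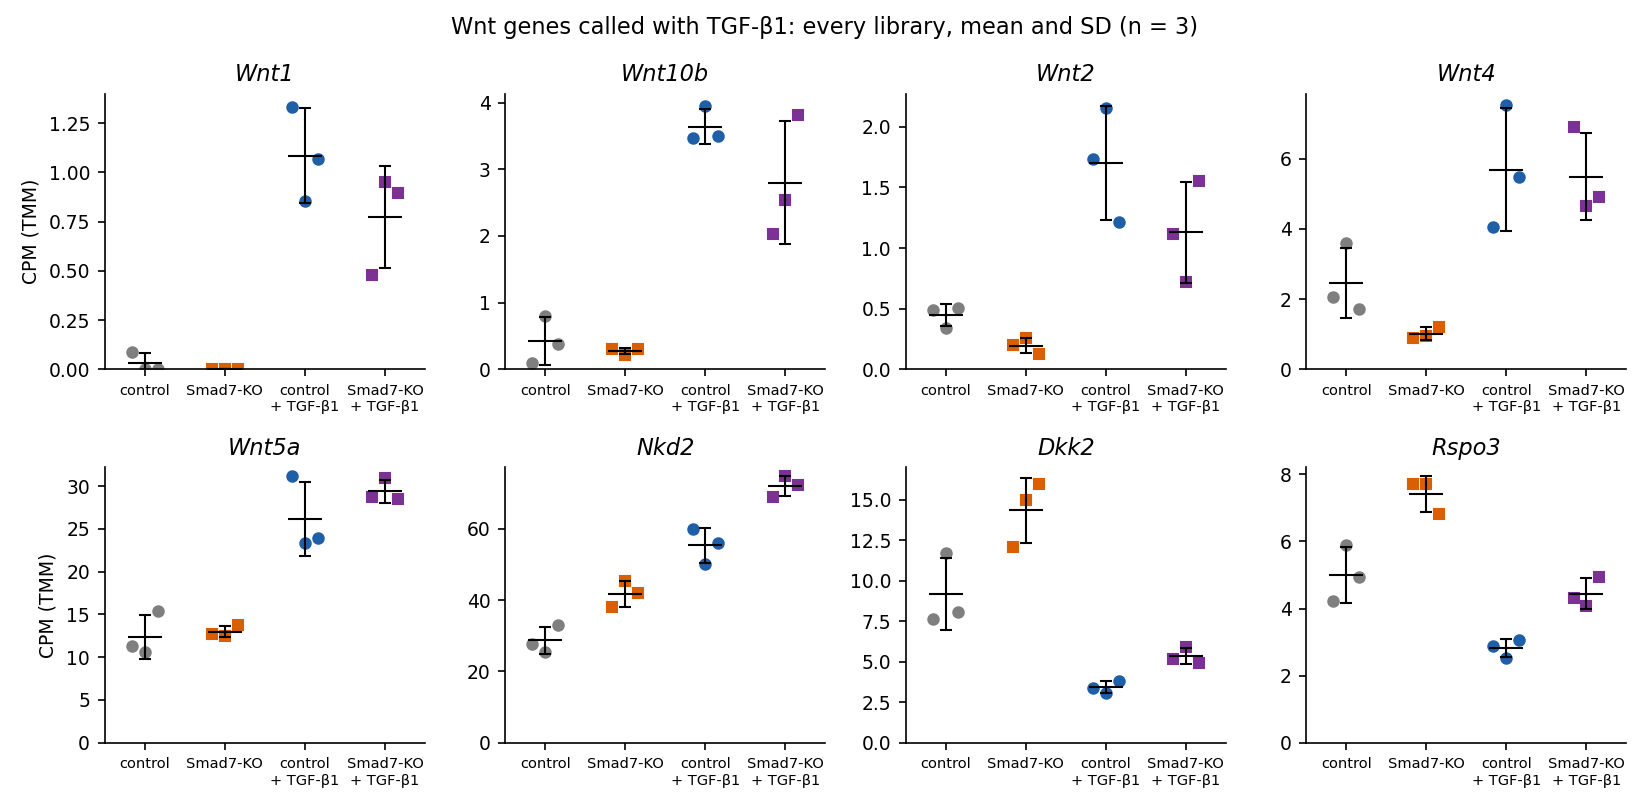
Every library of 8 Wnt genes that were called with TGF-β1, in CPM scaled by TMM, with the mean and SD of 3 libraries per condition. Stimulated and unstimulated libraries of the same genotype do not overlap in any panel, which is largely built in because the genes were chosen as called. The Wnt1 points of unstimulated Smad7-KO cells lie at 0.

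Nkd2 had 27.7, 25.6 and 33.0 CPM in unstimulated and 59.9, 50.1 and 56.1 CPM in stimulated controls. Smad7-KO libraries had 38.1, 45.3 and 41.9 CPM, and 69.1, 74.7 and 72.2 CPM with TGF-β1. Both stimulated groups lay above both unstimulated groups. Nkd2 rose by a log2 fold change of 0.94 in control (standard error 0.119, edgeR adjusted p = 3.58e-04) and 0.79 in Smad7-KO cells (standard error 0.118, edgeR adjusted p = 0.001). Its relative Nkd1, likewise an inhibitor of Dishevelled, had 10.2, 7.14 and 9.61 CPM in unstimulated and 8.28, 9.92 and 7.48 CPM in stimulated controls, groups that overlapped (log2 fold change -0.07, edgeR adjusted p = 0.875).

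Axin2 had 4, 4 and 21 counts in unstimulated and 8, 8 and 1 in stimulated controls, and 20, 21 and 13 against 6, 3 and 1 in Smad7-KO libraries. The control groups overlapped and the Smad7-KO groups did not, but neither difference passed the test (log2 fold change -0.88, edgeR adjusted p = 0.545, and -2.45, edgeR adjusted p = 0.0607). Lef1 had 6, 10 and 2 counts in unstimulated and 29, 16 and 16 in stimulated controls (log2 fold change 1.55, edgeR adjusted p = 0.132). Its Smad7-KO libraries had 10, 7 and 4 counts without and 23, 12 and 17 with TGF-β1 (log2 fold change 1.23, edgeR adjusted p = 0.238).

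The agonist Rspo3, an R-spondin of vascular and cardiac development, had 4.21, 5.88 and 4.93 CPM in unstimulated and 2.87, 2.52 and 3.06 CPM in stimulated controls. In Smad7-KO libraries the values were 7.72, 7.72 and 6.81 CPM without and 4.31, 4.07 and 4.95 CPM with TGF-β1. Stimulated libraries were lower without overlap. Rspo3 fell by 0.83 on the log2 scale in control (standard error 0.169, edgeR adjusted p = 0.00911) and by 0.74 in Smad7-KO cells (standard error 0.163, edgeR adjusted p = 0.012), the latter lost without unstimulated Smad7-KO library 1 (0.0528) or 2 (0.0540) and without stimulated Smad7-KO library 1 (0.0563) or 2 (0.0622).

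Dkk2, which binds Lrp5 and Lrp6, had 7.66, 11.7 and 8.09 CPM in unstimulated and 3.35, 3.09 and 3.84 CPM in stimulated controls. Smad7-KO libraries had 12.1, 15 and 16 CPM, and 5.18, 5.92 and 4.95 CPM with TGF-β1. The lowest unstimulated library of each genotype was above the highest stimulated one. Dkk2 fell by 1.41 on the log2 scale in control (standard error 0.192, edgeR adjusted p = 6.13e-04) and by 1.42 in Smad7-KO cells (standard error 0.186, edgeR adjusted p = 4e-04). Sfrp2 and Sfrp4 had log2 fold changes of -0.60 and -0.79 in control cells without overlap of the libraries, and did not pass the test (edgeR adjusted p = 0.0512 and 0.0827).

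Of the calls with TGF-β1, 9 of 11 in Smad7-KO cells and 5 of 11 in control cells held without any one library and in every alternative fit that tested them. Wnt1 and Wnt2 were too low for the limma fit. The calls that held included Wnt1, Wnt2 and Wnt10b, which had passed the filter only through stimulated libraries. When only the 6 libraries of the control comparison were fitted, Fzd1, Fzd6, Fzd7, Rspo3, Wnt4 and Wnt5a no longer passed in control cells (edgeR adjusted p up to 0.176, for Wnt4, and for Wnt5a just above the threshold).

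The next comparison set Smad7-KO against control cells for the same genes. Smad7-KO cells held less Sfrp2, Sfrp4 and Dkk3 and less of the receptors Fzd2, Fzd6 and Fzd8, with and without TGF-β1. They held more of the antagonists Sfrp1 and Dkk2 and of the agonist Rspo3, again in both conditions. In unstimulated cells Lrp6, Nkd2 and Wnt2b were higher as well and Rspo1 and Wnt4 lower, and in stimulated cells Wnt9a was lower. Calls of Wnt2b, Lrp6, Dkk2, Rspo3 and Wnt4 were lost in some fits without a single library, as given below. With TGF-β1, so were those of Sfrp1 and Fzd2. The Wnt2b call held in 1 of 12 such fits and the Lrp6 call in 3 of 12. In all, 14 of 34 tested members differed in unstimulated cells, 6 higher and 8 lower, against a background of 25.8% of all tested genes (12.1% higher, 13.7% lower). In stimulated cells 10 of 34 differed, 3 higher and 7 lower, against a background of 13% (5.72% higher, 7.23% lower). The fit shared its spread over all groups, although the unstimulated controls had the largest, 0.333, so these counts do not rank the conditions. Fitted on the 6 libraries of each comparison, fewer members were called in unstimulated than in stimulated cells. The study, with DESeq2, reported more genes differing between genotypes in stimulated than in unstimulated cells. Of the 10 tested ligands 1 rose and 1 fell in unstimulated cells, and 1 fell in stimulated cells. The 9 genes called in both had the same direction in each. These comparisons share no library, but came from a single fit with a common filter and spread, so their calls were not independent. The share of all tested genes called in both conditions that kept their direction is not given here. The median log2 fold change of the tested members was -0.33 in unstimulated cells, against -0.02 for all tested genes, and -0.44 in stimulated cells, against -0.02.

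Markers of other cell types moved with genotype. The 12 endothelial markers summed to between 269 and 325 CPM in control libraries of both conditions and to between 20.7 and 25.7 CPM in Smad7-KO libraries, and 8 of the 10 tested fell in each comparison. Without TGF-β1 the control and Smad7-KO means were 50.9 and 2.53 CPM for Pecam1, 34.2 and 3.06 CPM for Cdh5, 1.59 and 2.01 CPM for Kdr and 11.1 and 9.46 CPM for Tek, and Cldn5 and Sox17 did not exceed 8 counts in any library of any group. Macrophage markers summed to between 16546 and 26307 CPM in unstimulated control and 23397 and 25718 CPM in unstimulated Smad7-KO libraries, and to between 16442 and 19131 against 22687 and 25634 CPM in stimulated ones, with 6 and 5 of 12 rising and none falling. Epicardial and mesothelial markers summed to between 410 and 426 CPM against 281 and 331 CPM unstimulated, and to between 350 and 361 against 248 and 263 CPM stimulated, with 5 and 3 of the 7 tested falling. Smooth muscle and pericyte markers had 3 and 2 of 7 tested genes falling, cardiomyocyte markers 2 and 0 of 5, and fibroblast markers 2 rising and 2 falling of 9 in each. Some markers were under the cutoff of the low-count filter, 0.441 CPM, in Smad7-KO cells: Robo4 with means of 0.152 and 0.204 CPM and Krt18 with 0.138 and 0.0585 CPM. Both passed the filter through control libraries, so a fall of theirs was partly built in. The part of the marker differences in the Wnt results was not tested.

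**Figure D4:**
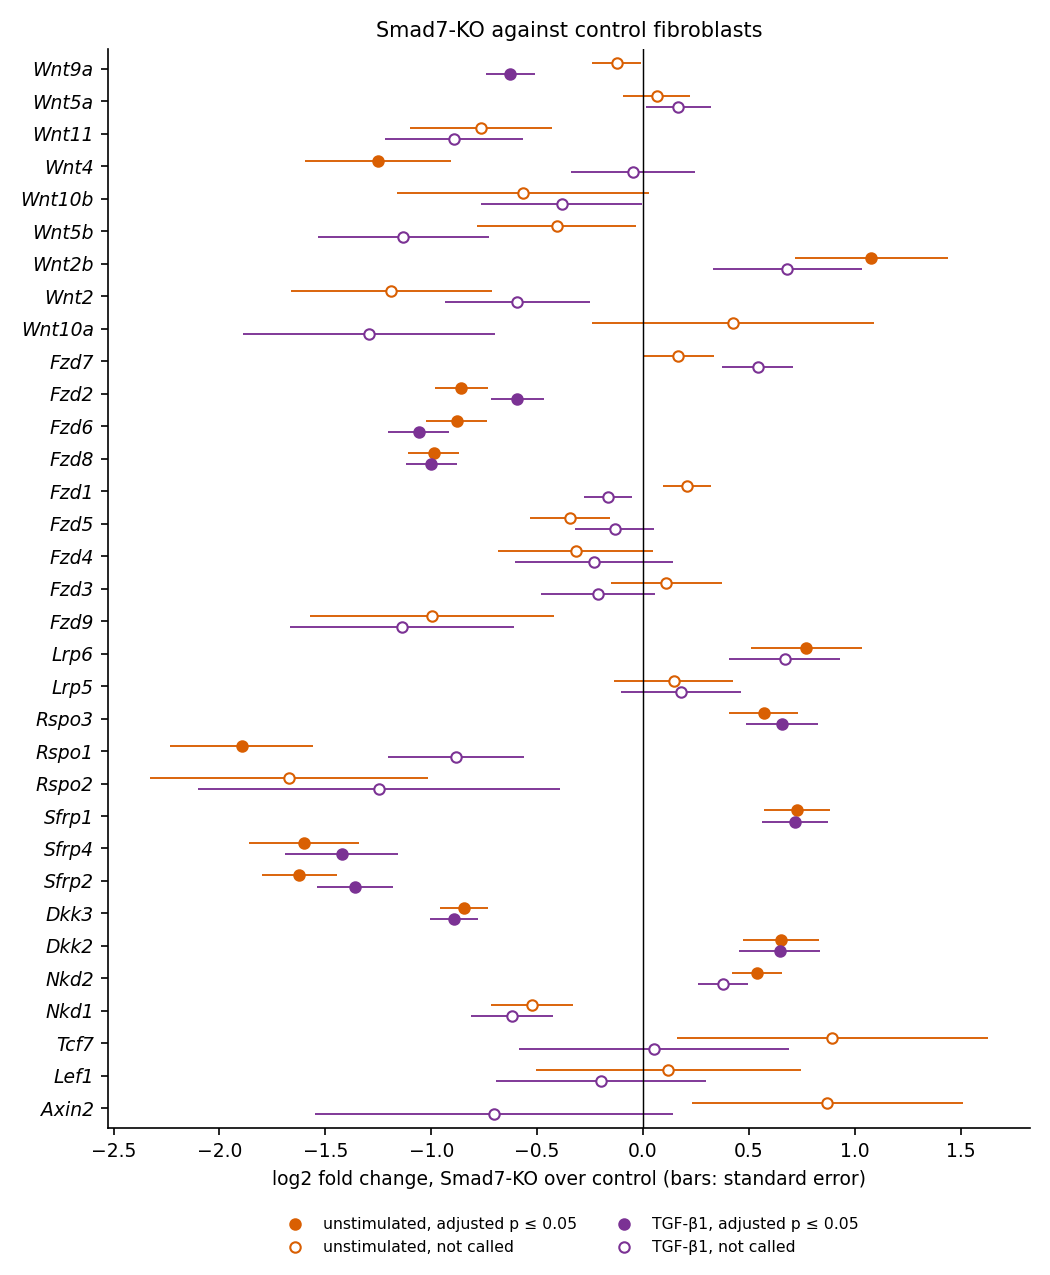
Difference between Smad7-KO and control cells for each tested Wnt gene, as log2 fold change with its standard error, in unstimulated and TGF-β1-stimulated fibroblasts. Filled points passed the edgeR test at an adjusted p of 0.05. Sfrp2, Sfrp4, Dkk3, Fzd2, Fzd6 and Fzd8 lie to the left and Sfrp1, Dkk2 and Rspo3 to the right in both conditions; Wnt1, which is at the floor in unstimulated cells, is not drawn.

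The secreted Frizzled-related proteins split. Sfrp1 had 303, 254 and 394 CPM in unstimulated control and 537, 515 and 522 CPM in unstimulated Smad7-KO libraries. With TGF-β1 it had 373, 290 and 349 CPM in control and 564, 604 and 497 CPM in Smad7-KO libraries. Smad7-KO libraries were higher without overlap in both conditions. Sfrp1 rose by a log2 fold change of 0.73 unstimulated (standard error 0.157, edgeR adjusted p = 0.009) and 0.72 stimulated (standard error 0.157, edgeR adjusted p = 0.0124). The stimulated call was lost without Smad7-KO library 1 (adjusted p = 0.0506 in edgeR) or 2 (0.0607) or without control library 2 (0.0605).

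Sfrp2, a matrix-associated relative that has also been described as a Wnt agonist, had 16, 13.9 and 18.7 CPM in unstimulated control and 5.45, 5.23 and 5.12 CPM in Smad7-KO libraries. Stimulated control libraries had 8.81, 11.9 and 11.4 CPM and stimulated Smad7-KO libraries 4.98, 3.44 and 4.06 CPM. No Smad7-KO library reached the lowest control library of either condition. Sfrp2 fell by 1.62 on the log2 scale unstimulated (standard error 0.176, edgeR adjusted p = 1.99e-04) and by 1.36 stimulated (standard error 0.178, edgeR adjusted p = 7.87e-04). Sfrp4 had 15.1, 25.2 and 14.3 CPM in unstimulated control and 6.83, 5.19 and 5.94 CPM in Smad7-KO libraries, and 9.94, 12.0 and 9.56 against 2.67, 4.02 and 5.09 CPM with TGF-β1. The groups did not overlap. It fell by 1.60 on the log2 scale unstimulated (standard error 0.26, edgeR adjusted p = 0.00207) and by 1.42 stimulated (standard error 0.266, edgeR adjusted p = 0.00553). Per length, Sfrp1 at 121 FPKM in unstimulated Smad7-KO cells exceeded Sfrp4 at 3.44 and Sfrp2 at 2.65 FPKM. Frzb, outside the rule, had 55.7 FPKM there. It was called in both genotype comparisons, with means of 209 in control and 174 CPM in Smad7-KO cells unstimulated, and 216 and 165 CPM stimulated.

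The Dickkopf genes split too. Dkk3 had 74.7, 73.5 and 90.1 CPM in unstimulated control and 46.2, 43.8 and 42.9 CPM in Smad7-KO libraries. After TGF-β1 it had 107, 84.9 and 92.5 CPM in control and 52.1, 49.0 and 52.1 CPM in Smad7-KO libraries. Control libraries were higher throughout. Dkk3 fell by 0.84 on the log2 scale unstimulated (standard error 0.114, edgeR adjusted p = 7.36e-04) and by 0.89 stimulated (standard error 0.114, edgeR adjusted p = 6.87e-04). Dkk2, given by library above, rose by a log2 fold change of 0.65 in each condition (standard error 0.181, edgeR adjusted p = 0.0261 unstimulated, and standard error 0.193, edgeR adjusted p = 0.0487 stimulated). The unstimulated Dkk2 call was lost without Smad7-KO library 2 (adjusted p = 0.0832 in edgeR) or 3 (0.0949) or without control library 1 (0.0821), and with the length trend removed (0.0668). The stimulated one was lost without any one of the 6 stimulated libraries (0.0736 to 0.178) or the 3 unstimulated Smad7-KO libraries (0.0553 to 0.0739), with the replicate block (0.0570), with the length trend removed (0.0577), with no filter on low counts (0.0653) and in limma (0.0942).

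**Figure D5:**
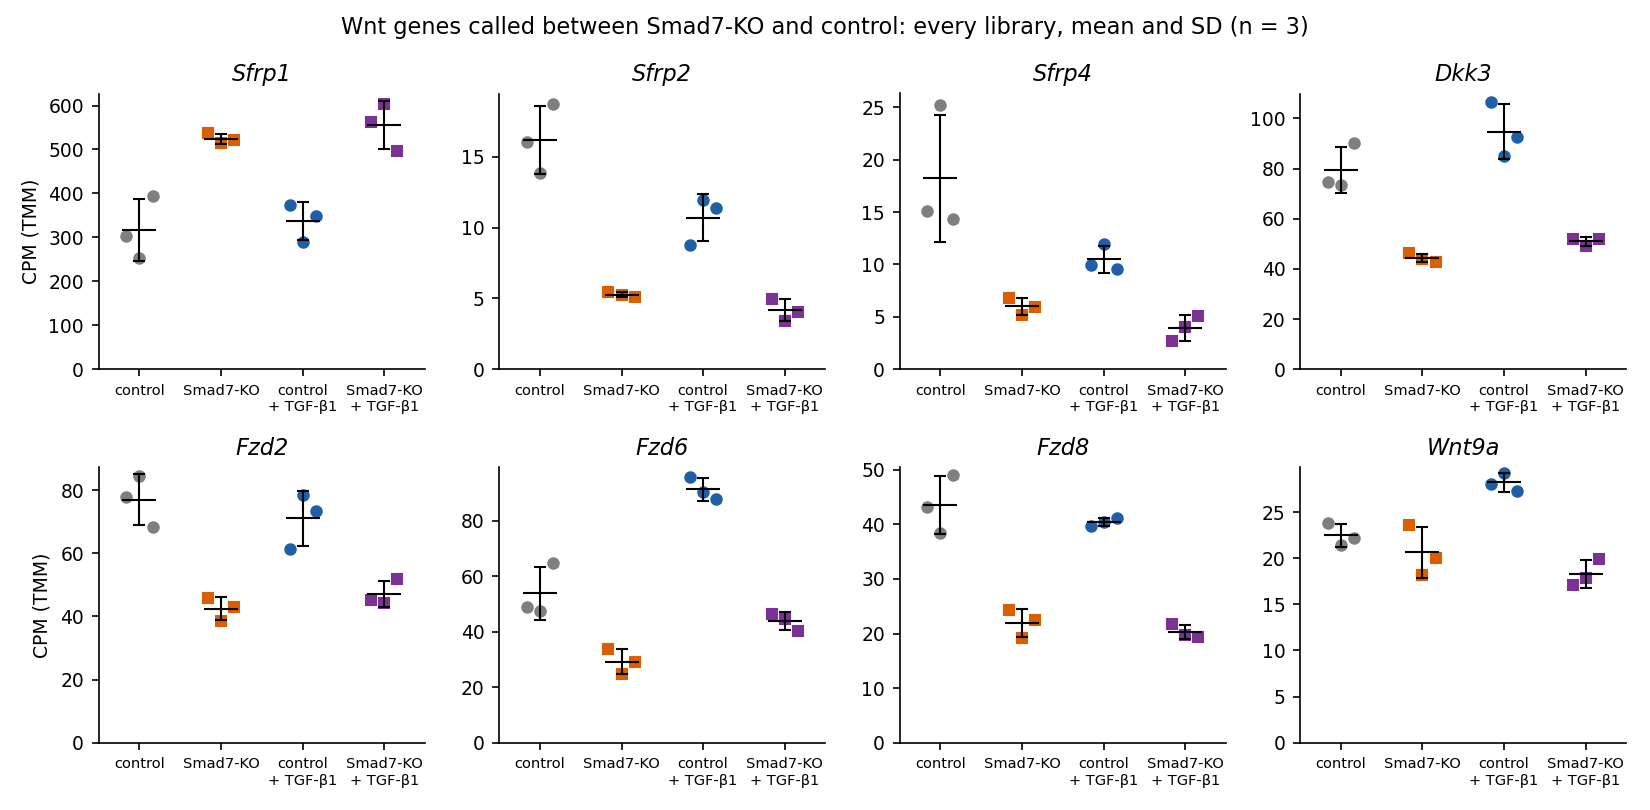
Every library of 8 Wnt genes that differed between Smad7-KO and control cells, in CPM scaled by TMM, with the mean and SD of 3 libraries per condition. Smad7-KO and control libraries do not overlap in either condition for 7 of the 8, and for Wnt9a they overlap in unstimulated cells. The absence of overlap is largely built in because the genes were chosen as called.

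Among receptors, Fzd8 had 43.2, 38.3 and 49.0 CPM in unstimulated control and 24.3, 19.1 and 22.5 CPM in Smad7-KO libraries. With TGF-β1 the libraries had 39.8, 40.4 and 41.2 CPM and 21.7, 19.7 and 19.3 CPM. The groups stood well apart. Fzd8 fell by 0.99 on the log2 scale unstimulated (standard error 0.12, edgeR adjusted p = 3.92e-04) and by 1.00 stimulated (standard error 0.12, edgeR adjusted p = 5.1e-04). Fzd6, given by library above, fell by 0.88 unstimulated (standard error 0.144, edgeR adjusted p = 0.00222) and by 1.06 stimulated (standard error 0.144, edgeR adjusted p = 9.39e-04), without overlap.

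Fzd2 had 77.7, 84.6 and 68.5 CPM in unstimulated control and 45.8, 38.6 and 42.9 CPM in Smad7-KO libraries. In stimulated cells the control libraries had 61.4, 78.3 and 73.5 CPM and the Smad7-KO libraries 45.2, 44.3 and 51.8 CPM. All Smad7-KO values lay under the control values. Fzd2 fell by 0.86 on the log2 scale unstimulated (standard error 0.126, edgeR adjusted p = 0.00122) and by 0.59 stimulated (standard error 0.126, edgeR adjusted p = 0.0103). The stimulated Fzd2 call was lost without Smad7-KO library 1 (adjusted p = 0.0537 in edgeR) or 2 (0.0552) or without control library 2 (0.0603). Fzd7 had log2 fold changes of 0.17 unstimulated (edgeR adjusted p = 0.456) and 0.54 stimulated (edgeR adjusted p = 0.0544), and Fzd1, Fzd3, Fzd4, Fzd5 and Fzd9 did not pass the test either.

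The co-receptor Lrp6 had 98.6, 86.1 and 184 CPM in unstimulated control and 225, 211 and 195 CPM in Smad7-KO libraries. The groups did not overlap, but control library 3 was higher than the other controls and close to the lowest Smad7-KO library. Lrp6 rose by a log2 fold change of 0.77 (standard error 0.262, edgeR adjusted p = 0.0498). Leaving out single libraries, the call held in 3 of 12 fits and was lost without any one of the unstimulated Smad7-KO libraries (adjusted p = 0.0981 to 0.132 in edgeR), without unstimulated control library 1 (0.134) or 2 (0.121), without any stimulated Smad7-KO library (0.0566 to 0.0709) or stimulated control library 3 (0.0711), with the replicate block (0.0621) and with no filter on low counts (0.0788). In stimulated cells Lrp6 had 145, 90.5 and 107 CPM in control and 191, 202 and 152 CPM in Smad7-KO libraries, again without overlap (log2 fold change 0.67, edgeR adjusted p = 0.117). Lrp5 had log2 fold changes of 0.14 and 0.18 and overlapped in both conditions.

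Of the R-spondins, Rspo1 was low and fell. It had 32, 32 and 43 counts in unstimulated control and 8, 8 and 14 in unstimulated Smad7-KO libraries, and 27, 40 and 25 against 23, 16 and 10 with TGF-β1. The groups did not overlap in either condition. In unstimulated cells Rspo1 fell by 1.90 on the log2 scale (standard error 0.339, edgeR adjusted p = 0.00343), and had a log2 fold change of -0.88 in stimulated cells (standard error 0.322, edgeR adjusted p = 0.0954). Rspo3, given by library above, rose by a log2 fold change of 0.57 unstimulated (standard error 0.162, edgeR adjusted p = 0.0286) and 0.66 stimulated (standard error 0.169, edgeR adjusted p = 0.0256). The unstimulated Rspo3 call was lost without any one Smad7-KO library (adjusted p = 0.0578 to 0.0895 in edgeR), without control library 1 (0.0829) and with no filter on low counts (0.0587). The stimulated one was lost without any one of the 6 stimulated libraries (0.0536 to 0.111), with no filter on low counts (0.0616) and with the replicate block (0.0511).

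Among ligands, Wnt9a, which acts in joint formation, had 23.8, 21.4 and 22.2 CPM in unstimulated control and 23.6, 18.2 and 20.1 CPM in Smad7-KO libraries, which overlapped (log2 fold change -0.12, edgeR adjusted p = 0.425). In stimulated cells it had 28.1, 29.3 and 27.3 CPM in control and 17.1, 17.8 and 19.9 CPM in Smad7-KO libraries, without overlap. Wnt9a fell there by 0.63 on the log2 scale (standard error 0.117, edgeR adjusted p = 0.00553). Wnt2b had 22, 7 and 37 counts in unstimulated control and 49, 45 and 47 in Smad7-KO libraries, and rose by a log2 fold change of 1.08 (standard error 0.361, edgeR adjusted p = 0.0481). With single libraries left out, that call was lost in 11 of 12 fits (adjusted p = 0.0565 to 0.133 in edgeR), all but the one without unstimulated control library 3, and with no filter on low counts (0.0604). Wnt4, given by library above, fell without TGF-β1 by 1.25 on the log2 scale (standard error 0.345, edgeR adjusted p = 0.0257), and had a log2 fold change of -0.05 in stimulated cells, where the libraries overlapped. The Wnt4 call was lost without any one unstimulated Smad7-KO library (adjusted p = 0.0551 to 0.0860 in edgeR), without unstimulated control library 2 (0.0807) and in limma on log2(FPKM + 1) (0.0984).

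In unstimulated cells Nkd2, given by library above, was higher in every Smad7-KO library than in any control library, a log2 fold change of 0.54 (standard error 0.118, edgeR adjusted p = 0.00966). In stimulated cells its log2 fold change was 0.38 (standard error 0.117, edgeR adjusted p = 0.0547). Axin2, Lef1, Tcf7 and Nkd1 did not pass the test in either condition. For Nkd1 the log2 fold changes were -0.52 and -0.62 (edgeR adjusted p = 0.062 and 0.0566), and Axin2 had 0.87 and -0.70 (edgeR adjusted p = 0.308 and 0.6).

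Of the calls between genotypes, 7 of 14 in unstimulated and 6 of 10 in stimulated cells held without any one library and in every alternative fit that tested them. Those were Dkk3, Fzd6, Fzd8, Sfrp2 and Sfrp4 in both conditions, Fzd2 and Rspo1 unstimulated, and Wnt9a stimulated. Rspo1 was too low for the limma fit. When only the 6 libraries of the unstimulated comparison were fitted, Rspo3, Nkd2, Wnt2b, Dkk2, Lrp6, Sfrp1 and Wnt4 no longer passed (edgeR adjusted p from 0.0676 for Sfrp1 to 0.158 for Wnt2b).

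Whether TGF-β1 changed the difference between Smad7-KO and control cells was tested as an interaction. None of the 34 tested members passed, by edgeR or by DESeq2, and 0.0198% of all tested genes did. At an unadjusted p under 0.05, edgeR found 392 of the 15150 genes (2.59%), among them 3 members: Wnt9a with a difference of -0.50 between both log2 fold changes (standard error 0.166), Wnt4 with 1.20 (standard error 0.452) and Fzd1 with -0.37 (standard error 0.162), each with an edgeR adjusted p of 0.98. Hence Wnt9a, Wnt4, Rspo1, Lrp6, Nkd2 and Wnt2b, which passed in a single condition, were not shown to differ between conditions. For Rspo1 the difference was 1.01 (standard error 0.469), and for Dkk3, Dkk2, Fzd8 and Sfrp1 it was between -0.05 and -0.01, with standard errors from 0.16 to 0.285.

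A further 68 genes of the Wnt pathway were listed by role, of which 59 were tested. In unstimulated Smad7-KO against control cells 4 were higher and 15 lower (32.2% of those tested), against 25.8% of all tested genes. In stimulated cells 1 was higher and 14 lower (25.4%), against 13%. The number called in unstimulated cells was 33 without unstimulated control library 3 and 5 without unstimulated Smad7-KO library 2. In stimulated cells it was 25 without unstimulated control library 2 and 6 without stimulated Smad7-KO library 1. Calls of single genes in the list were not followed across these fits. The shares of all tested genes called in them are not given here, so these shifts cannot be told from shifts of all genes. Of the extracellular modulators 4 and 5 of the 6 tested fell and none rose. Cthrc1, a secreted matrix protein that stabilizes ligand and receptor complexes, fell from 83.1 ± 7.22 to 36.4 ± 3.22 CPM unstimulated and from 80.2 ± 10.9 to 34.3 ± 1.78 CPM stimulated (SD, n = 3 each), log2 fold changes of -1.19 and -1.22. The glypicans Gpc3 and Gpc4, heparan sulfate co-receptors, fell by 2.39 and 0.57 on the log2 scale unstimulated and by 1.44 and 0.71 stimulated. Ryk, an atypical Wnt receptor, fell by 0.77 and 0.56, and Reck, which with Gpr124 serves Wnt7 signaling, by 0.61 and 0.82. Sp5, a target and repressor of β-catenin signaling, fell from 2.28 ± 0.736 to 0.214 ± 0.149 CPM unstimulated and from 0.792 ± 0.314 to 0.137 ± 0.157 CPM stimulated (SD, n = 3 each). Both Smad7-KO means of Sp5 lay under the cutoff of the low-count filter, 0.441 CPM. Sp5 thus passed it through control libraries, and its fall was partly built in. Twist1 fell by 1.15 and 0.78 on the log2 scale and Myc by 0.63 and 0.61. These 8 genes were named for being called in both comparisons with the largest changes. That their control and Smad7-KO libraries did not overlap in either condition was therefore largely built in. Cytoplasmic members of the pathway had 2 rising and 1 falling of 15 unstimulated and 0 called stimulated, and planar polarity genes 0 of 9 in each.

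With TGF-β1, 7 of the 59 rose and 1 fell in control cells, and 7 rose and 1 fell in Smad7-KO cells (13.6% each), against 8.37% and 10.2% of all tested genes. Over the alternative fits and with single libraries left out, 3 to 14 were called in control and 7 to 18 in Smad7-KO cells. Without unstimulated control library 3 it was 14 in control, and without unstimulated control library 2 it was 16 in Smad7-KO cells. The shares of all tested genes called in those fits are not given here. Wisp1, a matricellular protein and reported β-catenin target, rose from 36.0 ± 12.9 to 239 ± 36.7 CPM in control and from 42.1 ± 4.97 to 217 ± 18.9 CPM in Smad7-KO cells (SD, n = 3 each), log2 fold changes of 2.73 and 2.36. The R-spondin receptor Lgr6 rose from 0.768 ± 0.335 to 3.52 ± 0.170 CPM and from 0.417 ± 0.0659 to 2.71 ± 0.758 CPM (SD, n = 3 each). Ror2, a receptor for Wnt5a, rose by log2 fold changes of 0.93 and 1.49, and Znrf3, the ubiquitin ligase that removes Frizzled receptors and is inhibited by R-spondins, by 0.99 and 1.12. Ctnnb1, which encodes β-catenin, rose from 468 ± 70.8 to 751 ± 41.9 CPM in control and from 545 ± 8.99 to 897 ± 19.2 CPM in Smad7-KO cells (SD, n = 3 each), log2 fold changes of 0.68 and 0.72. The co-repressor Tle1 rose by 0.67 and 0.70, whereas the TCF/LEF factor Tcf7l2 fell by 0.50 in each genotype. All of these were named for passing an edgeR adjusted p of 0.05 in both genotypes. That their stimulated and unstimulated libraries did not overlap was therefore largely built in.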

How the data were processed

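RNA-Seq libraries (poly-A selection, NEBNext Ultra) were made from cultured mouse cardiac fibroblasts, 3 for each of 4 conditions. Raw counts for each gene were deposited as whole numbers. The deposited FPKM values are these counts over length and library total, which was checked in all 35275 genes (relative tolerance 1e-06). The submitters' processing notes name CASAVA, TopHat2 2.0, Cufflinks 2.1.1 and HTSeq 0.6.1 with mm10 and GRCm38.p6, and the study used DESeq2. Whether strand was counted is not given in the sources used here.

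Counts of all 12 libraries were fitted with edgeR 4.0.16 (R 4.3.3) after filterByExpr with a minimum count of 10 and TMM scaling, in a robust quasi-likelihood model by condition. Benjamini-Hochberg adjustment ran over all 15150 genes tested, with calls at 0.05 or less. CPM is scaled by TMM. A group with 3 counts or fewer in every library was treated as at the floor, and floors cover counting error only. With 3 libraries per group an exact two-sided permutation test cannot give a p under 0.1. Depth per library was 19056916 to 25371321 counts. Values per library are given for each member called in any comparison and for the member with the highest FPKM in each role. Absence of overlap between libraries describes a gene only, and its share over all tested genes is not given here. Of the other pathway genes, those called in both comparisons of a pair are named, at most 8 by size, and Frzb is named as well for its level. Members and lists were chosen with earlier results of these data known. Alternatives were DESeq2 1.42.0, edgeR with the DESeq2 size factors, no filter, only the 6 libraries of a comparison, limma 3.58.1 on log2(FPKM + 1) where 3 or more libraries reached an FPKM of 1, a replicate block, a removal of the trend on gene length by loess with a span of 0.3, and leaving out each library. The scripts were tested on simulated data in which each gene had the same spread in all groups. That simulation cannot show how calls behave where the spread differs between groups, as it did here. Deviations of same-numbered libraries from their group means had correlations over genes from -0.357 to 0.524, not all above 0.1, so numbers were not taken as pairs. The value of 0.524 was between library 2 of the unstimulated and library 2 of the stimulated controls. Whether these libraries share a source was not tested. No deposited column of values was without a sample. Promoter sequence is from RefSeq on GRCm38.p6.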

Additional observations from a re-analysis of the deposited data

How the results depend on the processing

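No call of a Wnt gene changed direction under any alternative, and 27 of the 46 calls held in every fit that tested them. Wnt1, Wnt2 and Rspo1, among these 27, were under the FPKM limit of the limma fit and were not tested in it. When a comparison was fitted on its own 6 libraries, the number of Wnt genes called was 7 instead of 14 between genotypes in unstimulated cells, 16 instead of 10 in stimulated cells, 5 instead of 11 with TGF-β1 in control cells and 17 instead of 11 in Smad7-KO cells. Leaving out 1 library gave 9 to 17, 6 to 16, 9 to 15 and 9 to 13 in the same order. The lowest values came without unstimulated Smad7-KO library 2 or 3 (9), and without stimulated Smad7-KO library 1 or 2 or stimulated control library 2 (6), and the highest in stimulated cells came without unstimulated control library 2 (16). With the replicate block the counts were 13, 8, 11 and 11, and 0 for the interaction, and the labels give no pairing by number. The block ended the calls of Lrp6 in unstimulated and of Dkk2 and Rspo3 in stimulated cells between genotypes and no other. For the other pathway genes the counts were 5 to 33 of 59 unstimulated and 6 to 26 stimulated between genotypes over all alternatives, with 33 without unstimulated control library 3. With TGF-β1 they were 3 to 14 in control and 7 to 18 in Smad7-KO cells. The shares of all tested genes called in these fits are not given here. Shifts of the Wnt counts thus cannot be told from shifts of all genes. Scaling by library totals alone gave medians of the tested Wnt genes of -0.33 and -0.48 between genotypes and of 0.16 and -0.03 with TGF-β1, in the same order, and the last of these lies near 0 under each scaling. Depth limits the 15 untested members, none of which exceeded 14 counts in a library. The cause of the other differences between fits was not tested.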

Other observations

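Within the unstimulated controls, library 2 was the lowest and library 3 the highest of the 3 for 15 of the 34 tested Wnt genes (44.1%), and for 5436 of the 15150 tested genes (35.9%). Lrp5 had 101, 49.5 and 141 CPM in unstimulated control libraries 1, 2 and 3, against 114, 99.9 and 109 CPM in unstimulated Smad7-KO libraries. Fzd4 had 15.5, 8.17 and 29.9 CPM there, against 16.3, 14.3 and 12.5 CPM. For both genes every unstimulated Smad7-KO library lay between the lowest and the highest control library, so differences of their size could not be told from the spread of the controls. Wnt11 had 6.34, 10.4 and 7.04 CPM in stimulated control and 3.15, 3.62 and 6.08 CPM in stimulated Smad7-KO libraries, without overlap but short of the threshold (log2 fold change -0.89, edgeR adjusted p = 0.0961), as was Wnt5b with 1.94, 1.83 and 2.18 against 0.558, 1.13 and 1.04 CPM (log2 fold change -1.13, edgeR adjusted p = 0.0887).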
